A study of Caenorhabditis elegans with 22 samples.

Results

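Hallmark genes of the intestine of the nematode Caenorhabditis elegans, 9 in all, were followed in RNA-seq libraries of whole adult animals kept with or without rotenone. They are the GATA transcription factors elt-2 and elt-7, the actin act-5, the intermediate filament ifb-2, the esterase ges-1, the acid phosphatase pho-1, the proton pump subunit vha-6, the sodium/proton exchanger nhx-2 and the peptide transporter pept-1. Rows of the count table were taken by these names with no filter on their values, but the names were chosen with earlier results of these data known. All 9 were found among 45461 genes, and all 9 were among the 16822 genes with enough counts to be tested. Groups were 100 nM rotenone and the DMSO solvent control at 1, 5, 10 and 20 days after L4, the last larval stage, and all plates of both treatments came from 1 batch of agar, per the labels. Of the 22 libraries, 3 stood for each treatment at days 1, 5 and 10, and 2 for each at day 20, which gave 8 groups. Rotenone blocks complex I of the mitochondrial respiratory chain. Strain and sex are not given in the sources used here, nor is whether libraries of a group came from separate cultures, and the spread behind all p-values may therefore be technical.

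The worm intestine is a tube of large polarised epithelial cells that digests food, takes up nutrients, stores fat and makes yolk. ELT-2 is the main transcription factor of the differentiated intestine, binds GATA-like sites in the promoters of intestinal genes, and acts with its relative ELT-7. The apical face carries microvilli with cores of ACT-5, and IFB-2 is part of the sheet of intermediate filaments beneath them, the terminal web. GES-1 and PHO-1 are hydrolases long used to stain intestinal cells. VHA-6 is the apical a subunit of the vacuolar proton ATPase, which acidifies the lumen. PEPT-1 takes up di- and tripeptides along the proton gradient, and NHX-2 exchanges sodium for protons at the same membrane as part of that uptake.

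Total counts ran from 25769159 to 69961601 per library. All genes below were counted in every library, and levels are given as CPM, reads scaled to the size of the library and by a TMM factor. Since RNA came from whole animals, fewer intestinal cells and less RNA per intestinal cell cannot be told apart, and a level also depends on how much RNA other tissues gave. 1 library stood apart: DMSO day 10 replicate 1 was the lowest of its group for 8 of the 9 genes, the exception being elt-7, where it was the highest. Rotenone day 10 replicate 1 was also the lowest of its group for act-5, ifb-2, elt-2, pho-1, vha-6, nhx-2 and pept-1. Over all tested genes, the deviations of these 2 libraries from their group means correlated at 0.43. At day 1, fold changes of rotenone over DMSO across all genes followed exonic length, with a median log2 fold change of 0.26 in the shortest 1 of 5 length classes and -0.26 in the longest. Replicate numbers are those of the labels, and values within a group are given in that order.

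Most of the 9 genes fell early in adult life. Between day 1 and day 5, 8 of 9 passed as lower and ges-1 passed as higher in both treatments. On DMSO the fold changes of the 9 genes had a median of -1.69 on the log2 scale, beside -0.05 over all tested genes, and on rotenone -1.51 beside -0.12. At day 20 against day 1, 8 of 9 were lower on rotenone and 9 of 9 on DMSO, with medians of -2.22 and -2.75, beside -0.02 and -0.01 over all genes. The share of all tested genes that passed was large at every age. At day 5 against day 1 it was 35.4% lower and 27.3% higher on rotenone, and 31.3% lower and 24.6% higher on DMSO. At day 10 against day 1, where 8 of the 9 genes were lower on rotenone and 9 of 9 on DMSO, 33.7% of all genes were lower and 26.6% higher on rotenone, and 29.6% lower and 26.7% higher on DMSO. At day 20 against day 1 it was 33.4% lower and 31.4% higher on rotenone, and 30.9% lower and 27.8% higher on DMSO. Of 35 other tested genes known for intestinal expression, 13 fell and 13 rose on DMSO at day 5 against day 1 (median -0.12). On rotenone 14 of these fell and 10 rose (median -0.10). On DMSO 9 of 9 body wall muscle, 8 of 9 pharynx and 7 of 9 hypodermis markers fell at that step (medians -1.97, -1.47 and -1.66). In contrast, 5 of 10 germline and 7 of 9 oocyte markers rose.

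The later steps were mixed. Of the 9 genes 6 fell between day 5 and day 10 in each treatment, namely act-5, ifb-2, ges-1, pho-1, vha-6 and nhx-2, and none rose. Over all tested genes 11.6% were lower and 11.2% higher on rotenone, and 12.1% lower and 13.7% higher on DMSO. Between day 10 and day 20, act-5, elt-2 and nhx-2 rose and ges-1, pho-1 and vha-6 fell on rotenone, while act-5 and elt-2 rose and ges-1, pho-1, vha-6 and pept-1 fell on DMSO. The background there was 28.2% higher and 21.2% lower on rotenone, and 23.3% higher and 22.3% lower on DMSO. Without DMSO day 10 replicate 1 the count on DMSO was 7 between days 5 and 10, with pept-1 now higher, and 5 between days 10 and 20. In that fit 4500 of 16782 tested genes passed at the first of these steps and 8150 at the second. In all, 76 gene and age comparisons passed, and 71 of these passed in every alternative analysis. The summed level of the 9 genes was 940 ± 40 CPM on rotenone and 1136 ± 9.2 CPM on DMSO at day 1 (SD, n = 3 each). It was 193 ± 1.1 CPM on rotenone and 162 ± 24 CPM on DMSO at day 20 (SD, n = 2 each). The largest parts of the sum on DMSO at day 1 were act-5 (504 CPM) and vha-6 (256 CPM). With no TMM factor the sum was 1072 CPM on DMSO at day 1 and 209 CPM on rotenone at day 20. Differences between groups in this sum were not tested.

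**Figure D1:**
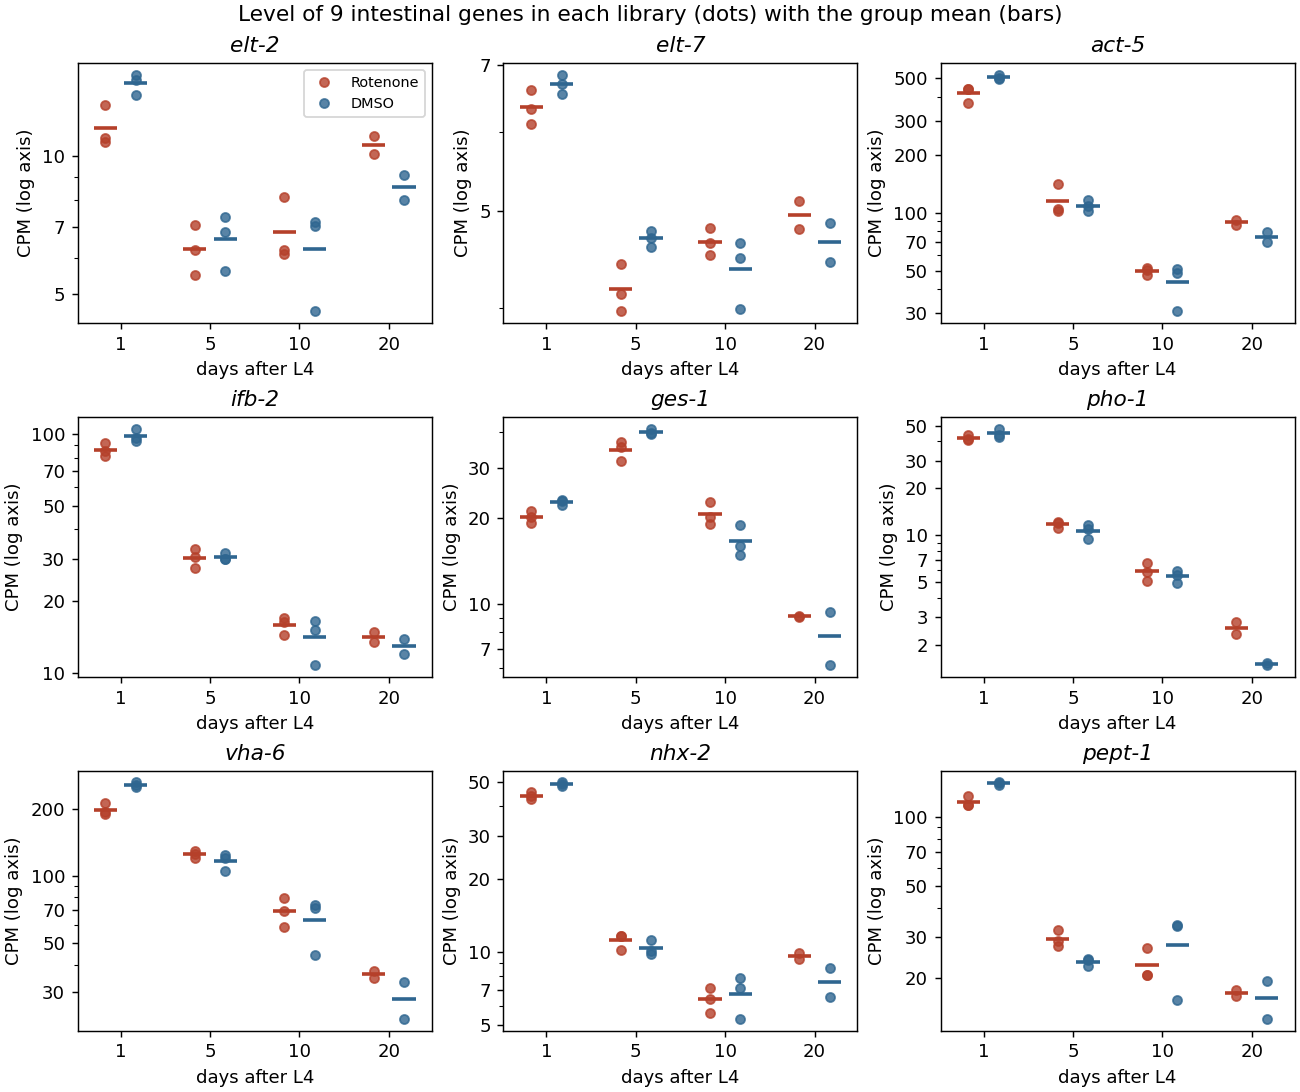
Level of each gene in every library (dots, CPM on a log axis) with the group mean (bars) at 1, 5, 10 and 20 days after L4, rotenone left of DMSO. Except for ges-1, which is highest at day 5, all genes have their highest levels at day 1. act-5 and elt-2 are higher at day 20 than at day 10, while pho-1 and vha-6 fall at every step.

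Transcription factors. elt-2 (sequence name C33D3.1, X:10481240-10483441, plus strand, genome build WBcel235, protein coding, 1558 exonic bases) encodes the main intestinal GATA factor. On rotenone it stood at 10.7, 12.9 and 10.9 CPM at day 1, at 7.07, 5.49 and 6.24 at day 5, at 6.10, 8.11 and 6.23 at day 10 and at 11 and 10.1 at day 20. On DMSO it stood at 14.6, 15 and 13.6 CPM at day 1, at 6.81, 7.35 and 5.60 at day 5, at 4.58, 7.02 and 7.18 at day 10 and at 8.01 and 9.06 at day 20. Levels were thus lowest in midlife and higher again at day 20 in both treatments. On DMSO the log2 fold change of elt-2 was -1.12 ± 0.15 at day 5 against day 1 (SE, adjusted p = 5.05e-06) and -1.19 ± 0.15 at day 10. At day 20 it was still lower than at day 1 on DMSO (log2 fold change -0.76 ± 0.17, adjusted p = 0.000914), whereas on rotenone the difference from day 1 was -0.13 ± 0.17 and did not pass (adjusted p = 0.523). The rise between day 10 and day 20 was 0.63 ± 0.17 on rotenone (adjusted p = 0.00435) and 0.43 ± 0.17 on DMSO (adjusted p = 0.0493), and the second of these was lost in 6 of 14 alternatives, among them those without DMSO day 10 replicate 1 (0.30, adjusted p = 0.121), DMSO day 20 replicate 1 (0.59, adjusted p = 0.0676) or DMSO day 20 replicate 2 (0.40, adjusted p = 0.2). The rise on rotenone was lost without rotenone day 20 replicate 1 (0.57, adjusted p = 0.0675).

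elt-7 (C18G1.2, V:4770670-4773086, plus strand, 841 exonic bases) encodes the second GATA factor and was the steadiest of the 9 genes, with its highest group mean 1.61 times its lowest. On rotenone it measured 6.33, 6.62 and 6.11 CPM at day 1, 4.13, 3.97 and 4.42 at day 5, 4.64, 4.81 and 4.52 at day 10 and 5.11 and 4.79 at day 20. On DMSO it measured 6.56, 6.85 and 6.70 CPM at day 1, 4.78, 4.61 and 4.70 at day 5, 4.65, 3.98 and 4.48 at day 10 and 4.45 and 4.86 at day 20. Day 1 libraries lay above those of all later days without overlap. The fall at day 20 against day 1 was -0.36 ± 0.10 on rotenone (adjusted p = 0.00314) and -0.53 ± 0.10 on DMSO (adjusted p = 0.000102), and the value on rotenone was lost when the length trend was removed (-0.11, adjusted p = 0.386), with no filter on low counts (adjusted p = 0.0763) and without rotenone day 20 replicate 2 (-0.28, adjusted p = 0.0612). No step after day 5 passed in either treatment, but the one between days 5 and 10 on rotenone (0.16, adjusted p = 0.21) passed as a rise when only genes with a mean of at least 50 counts were tested (0.26, adjusted p = 0.0461). For elt-2 the range of group means was 2.3-fold, from DMSO day 1 at the top to DMSO day 10 at the bottom.

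Among the other endoderm factors listed, which comprise end-1, end-3, elt-4 and pqm-1 as tested genes, 2 rose and 1 fell at day 20 against day 1 on DMSO. pqm-1, a zinc finger factor that binds GATA-like elements, rose by 1.36 ± 0.11 on the log2 scale (SE), to 31.2 ± 6.5 CPM at day 20 (SD, n = 2), against 12.1 ± 0.6 CPM at day 1 (SD, n = 3). elt-4, a short relative of elt-2, rose by 1.25 ± 0.36 and averaged 0.527 CPM at day 20 and 0.220 CPM at day 1, so it rests on few reads. The direction of elt-2 and elt-7 at day 20 was therefore not that of these 2 genes, and the fall of end-1, a factor of early endoderm specification, also concerned low levels, with 0.283 CPM at day 20 and 1.27 CPM at day 1.

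Lumen structure. act-5 (T25C8.2, III:13604412-13606066, minus strand, 1270 exonic bases) encodes the actin of intestinal microvilli. Rotenone libraries held 371, 440 and 437 CPM at day 1, 140.2, 101.8 and 104.005 at day 5, 47.3, 51.4 and 50.2 at day 10 and 92.0 and 86.7 at day 20. DMSO libraries held 502, 518 and 491 CPM at day 1, 116, 102 and 108 at day 5, 30.7, 51.3 and 48.5 at day 10 and 70.6 and 79.1 at day 20. The order over time was the same in both treatments, with a minimum at day 10 and no overlap between neighbouring ages within a treatment. At day 10 against day 1, act-5 had log2 fold changes of -3.07 ± 0.16 on rotenone and -3.53 ± 0.16 on DMSO (SE, adjusted p = 3.08e-12 and 5.68e-13). Between day 10 and day 20 it then rose by 0.85 ± 0.16 on rotenone (adjusted p = 0.000274) and by 0.78 ± 0.16 on DMSO (adjusted p = 0.000691). The rise on DMSO was 0.63 without DMSO day 10 replicate 1, and a fit of only those 2 groups gave 0.83 with an adjusted p of 0.0541.

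ifb-2 (F10C1.7, II:5750188-5754140, plus strand, 1908 exonic bases) encodes an intermediate filament of the terminal web. Its levels on rotenone were 85.2, 81.5 and 92.5 CPM at day 1, 33.1, 30.5 and 27.6 at day 5, 14.4, 16.3 and 16.9 at day 10 and 13.4 and 14.7 at day 20. On DMSO they were 106, 93.8 and 97.1 CPM at day 1, 30.01, 29.9 and 31.7 at day 5, 10.7, 15.1 and 16.5 at day 10 and 12 and 13.8 at day 20. Ages up to day 10 did not overlap, and days 10 and 20 did. The fall was -2.44 ± 0.13 on rotenone and -2.80 ± 0.13 on DMSO at day 10 against day 1 (adjusted p = 3.23e-12 and 5.87e-13). From there to day 20 the differences were -0.18 ± 0.14 on rotenone and -0.14 ± 0.14 on DMSO and did not pass (adjusted p = 0.3 and 0.445). With the length trend removed the difference on rotenone was -0.33 and passed. Unlike act-5, ifb-2 thus showed no rise after day 10.

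The other genes of the brush border and terminal web were split. At day 20 against day 1, 30.9% of all tested genes fell and 27.8% rose on DMSO, and 33.4% fell and 31.4% rose on rotenone. Of the 16 tested in this list, 7 fell and 4 rose on DMSO, with a median of -0.24 on the log2 scale. On rotenone 6 of them fell and 6 rose. The intestinal filament genes ifc-1 and ifc-2 fell with the smallest p on DMSO, with log2 fold changes of -6.36 ± 0.18 and -1.79 ± 0.09. ifc-1 had 0.365 ± 0.077 CPM at day 20 (SD, n = 2) and 31.4 ± 1.8 CPM at day 1 (SD, n = 3). The filament gene ifd-1 was at -3.49 ± 0.23, ifp-1 at -1.93 ± 0.24 and ifd-2 at 0.40 ± 0.11, all past the test. These 3, and the genes in the next sentence, were chosen for mention after their values were seen. The membrane linker erm-1 and the microvillus protein eps-8 fell, at -0.40 ± 0.15 and -0.51 ± 0.17, and the junction genes dlg-1 and hmr-1 rose by 0.83 ± 0.16 and 0.68 ± 0.18. Among 5 tested filaments of other tissues 4 fell and none rose, with ifa-1 at -1.72 ± 0.11 and mua-6 at -3.29 ± 0.23.

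The 4 actins other than act-5 also fell at day 20 against day 1 on DMSO, all 4 of them past the test, and 3 of 4 fell on rotenone. On DMSO the changes were -1.63 ± 0.16 for act-1, -0.74 ± 0.18 for act-2, -1.22 ± 0.19 for act-3 and -1.49 ± 0.22 for act-4, beside -2.75 ± 0.18 for act-5. Between day 10 and day 20 on DMSO, 3 of these 4 fell and 1 rose, with act-1 at -0.72 ± 0.16 and act-3 at -0.65 ± 0.18, while act-5 rose. How the authors' counting treated reads that fit several actin genes is not given in the sources used here, so the values of act-1 to act-4 are uncertain where their sequences coincide.

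Hydrolases. ges-1 (R12A1.4, V:1427653-1432137, minus strand, 1743 exonic bases) encodes the gut carboxylesterase. On rotenone it was counted at 20.2, 19.2 and 21.1 CPM at day 1, 31.5, 36.8 and 35.5 at day 5, 20.2, 19 and 22.8 at day 10 and 9.07 and 9.11 at day 20. On DMSO it was counted at 23.1, 23 and 22.2 CPM at day 1, 41, 39.1 and 39.5 at day 5, 14.9, 19 and 15.9 at day 10 and 6.14 and 9.44 at day 20. It was the only one of the 9 genes with a peak at day 5, and day 5 libraries lay above all others without overlap. The rise at day 5 against day 1 was 0.78 ± 0.12 on rotenone (adjusted p = 1.97e-05) and 0.81 ± 0.12 on DMSO (adjusted p = 1.29e-05). At day 10 ges-1 was lower than at day 1 on DMSO (-0.45 ± 0.12, adjusted p = 0.00365), whereas on rotenone the difference was 0.03 ± 0.12 (adjusted p = 0.822). By day 20 it had fallen in both, with -1.15 ± 0.14 on rotenone and -1.56 ± 0.15 on DMSO against day 1.

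pho-1 (EGAP2.3, II:5233156-5235846, minus strand, 1511 exonic bases) encodes the acid phosphatase of the intestinal brush border. It fell at each step. Rotenone libraries had 43.6, 41.2 and 40.7 CPM at day 1, 12, 12.1 and 11.2 at day 5, 5.14, 6.68 and 5.87 at day 10 and 2.79 and 2.34 at day 20. DMSO libraries had 44.0, 48.1 and 42.7 CPM at day 1, 11.7, 10.9 and 9.43 at day 5, 4.94, 5.88 and 5.56 at day 10 and 1.53 and 1.48 at day 20. Its range of group means, 29.8-fold, was the widest of the 9 genes. The fall at day 20 against day 1 was -4.01 ± 0.14 on rotenone and -4.89 ± 0.15 on DMSO (adjusted p = 7.46e-15 and 1.47e-15). pho-1 shares 120 exonic bases with EGAP2.1 on the opposite strand, which these unstranded libraries do not separate. EGAP2.1 itself ran between 10.7 and 19 CPM over all libraries, above pho-1 at days 5, 10 and 20, and how many of the pho-1 reads lie in the shared bases was not tested.

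Relatives of both enzymes moved both ways. So did all tested genes at day 20 against day 1, with 30.9% lower and 27.8% higher on DMSO, and 33.4% and 31.4% on rotenone. Of 33 tested carboxylesterase genes, 18 fell and 8 rose at day 20 against day 1 on DMSO (median -0.71), and 17 fell and 7 rose on rotenone (median -0.36). cest-10 fell on DMSO with -4.54 ± 0.21 and cest-2.2 with -3.71 ± 0.18. Of 17 tested acid phosphatase genes, 9 fell and 4 rose on DMSO (median -1.07), and 10 fell and 4 rose on rotenone (median -0.93). acp-6 fell by 5.11 ± 0.12 on DMSO, to 12.6 ± 0.4 CPM at day 20 (SD, n = 2) against 435 ± 13 CPM at day 1 (SD, n = 3). pho-13 fell by 5.78 ± 0.19. pho-6, chosen for mention after its value was seen, rose by 4.37 ± 0.17, to 15.5 ± 2.5 CPM at day 20 (SD, n = 2) against 0.744 ± 0.044 CPM at day 1 (SD, n = 3).

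Transporters. vha-6 (VW02B12L.1, II:11435210-11438452, minus strand, 2699 exonic bases) encodes the a subunit of the apical proton pump. On rotenone it held 190, 193 and 211 CPM at day 1, 125, 121 and 129 at day 5, 59.1, 69.8 and 79.5 at day 10 and 34.9 and 37.4 at day 20. On DMSO it held 255, 250 and 262 CPM at day 1, 120, 105 and 124 at day 5, 44.3, 71.7 and 73.9 at day 10 and 22.8 and 33.4 at day 20. Each age lay below the one before it without overlap, in both treatments. The fall at day 20 against day 1 was -2.45 ± 0.19 on rotenone and -3.19 ± 0.20 on DMSO (adjusted p = 1.43e-09 and 4.77e-11).

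The other tested genes of vacuolar proton ATPase subunits fell by less or did not fall. The lowest of them was at -1.78 on DMSO and the lowest on rotenone was at -1.37. Of 20 tested, 17 fell and none rose at day 20 against day 1 on DMSO, with a median of -0.85, and on rotenone 17 fell and 1 rose, with a median of -0.81. vha-8 and vha-11 were at -1.04 ± 0.08 and -1.41 ± 0.12 on DMSO. The a subunit has 3 other genes in the worm list, which were picked out after their values were seen. vha-5, of the excretory cell and hypodermis, fell by 1.78 ± 0.26, while unc-32 and vha-7 differed by 0.22 ± 0.24 and -0.06 ± 0.20 and did not pass (adjusted p = 0.45 and 0.82). unc-32 had 293 ± 59 CPM at day 20 (SD, n = 2) and 252 ± 9 CPM at day 1 (SD, n = 3).

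nhx-2 (B0495.4, II:7690711-7693957, minus strand, 2054 exonic bases) encodes the apical sodium/proton exchanger. Its rotenone values were 45.5, 42.4 and 43.8 CPM at day 1, 11.6, 11.6 and 10.2 at day 5, 5.64, 7.11 and 6.39 at day 10 and 9.33 and 9.86 at day 20. Its DMSO values were 49.8, 48.1 and 49.0 CPM at day 1, 10.1, 9.79 and 11.2 at day 5, 5.31, 7.79 and 7.08 at day 10 and 6.51 and 8.58 at day 20. Days 10 and 20 overlapped on DMSO but not on rotenone. nhx-2 rose between those days by 0.59 ± 0.14 on rotenone (adjusted p = 0.00173), and the difference on DMSO was 0.15 ± 0.14 (adjusted p = 0.435). At day 20 against day 1 it was still lower, at -2.19 ± 0.15 on rotenone and -2.71 ± 0.15 on DMSO. Of 9 other exchangers 3 rose and 3 fell on DMSO, near the shares over all tested genes (27.8% higher and 30.9% lower). Neither direction was more frequent, and the pair with the smallest p among those that fell was nhx-1 (-1.84 ± 0.25) and nhx-3 (-1.08 ± 0.15). Over these exchangers the fold changes on DMSO ran from -1.84 to 4.04.

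pept-1 (K04E7.2, X:6456872-6461767, plus strand, 2795 exonic bases) encodes the intestinal peptide transporter. Rotenone libraries gave 123, 112 and 112 CPM at day 1, 32, 28.9 and 27.5 at day 5, 20.4, 26.8 and 20.5 at day 10 and 16.6 and 17.7 at day 20. DMSO libraries gave 141, 137 and 141 CPM at day 1, 24, 22.4 and 23.8 at day 5, 15.9, 34 and 33.6 at day 10 and 13.2 and 19.3 at day 20. DMSO day 10 replicate 1 stood below the other 2 libraries of its group. The fall came mostly by day 5, with -1.97 ± 0.20 on rotenone and -2.57 ± 0.20 on DMSO against day 1 (adjusted p = 8.21e-08 and 2.92e-09). At day 10 against day 5, pept-1 differed by -0.39 ± 0.19 on rotenone and by 0.25 ± 0.20 on DMSO, neither of which passed (adjusted p = 0.169 and 0.373), while without DMSO day 10 replicate 1 they were -0.38 (adjusted p = 0.013) and 0.53 (adjusted p = 0.00275). Between days 10 and 20 it fell on DMSO (-0.79 ± 0.22, adjusted p = 0.00767), a call lost without DMSO day 20 replicate 1 (-0.47, adjusted p = 0.232) and in a fit of only those 2 groups (adjusted p = 0.206). The value on rotenone was -0.40 ± 0.22 (adjusted p = 0.141) and passed without DMSO day 10 replicate 1 (-0.39, adjusted p = 0.012), with no filter on low counts (-0.44, adjusted p = 0.0121), in a fit of only those groups (-0.43, adjusted p = 0.0206) and with the length trend removed (-0.67, adjusted p = 0.000987). Of its 2 tested relatives, pept-3 rose on DMSO at day 20 against day 1 by 1.91 ± 0.17, to 33.6 ± 12.3 CPM (SD, n = 2) against 8.89 ± 0.15 CPM (SD, n = 3), and pept-2 did not pass (0.04 ± 0.17, adjusted p = 0.84).

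**Figure D2:**
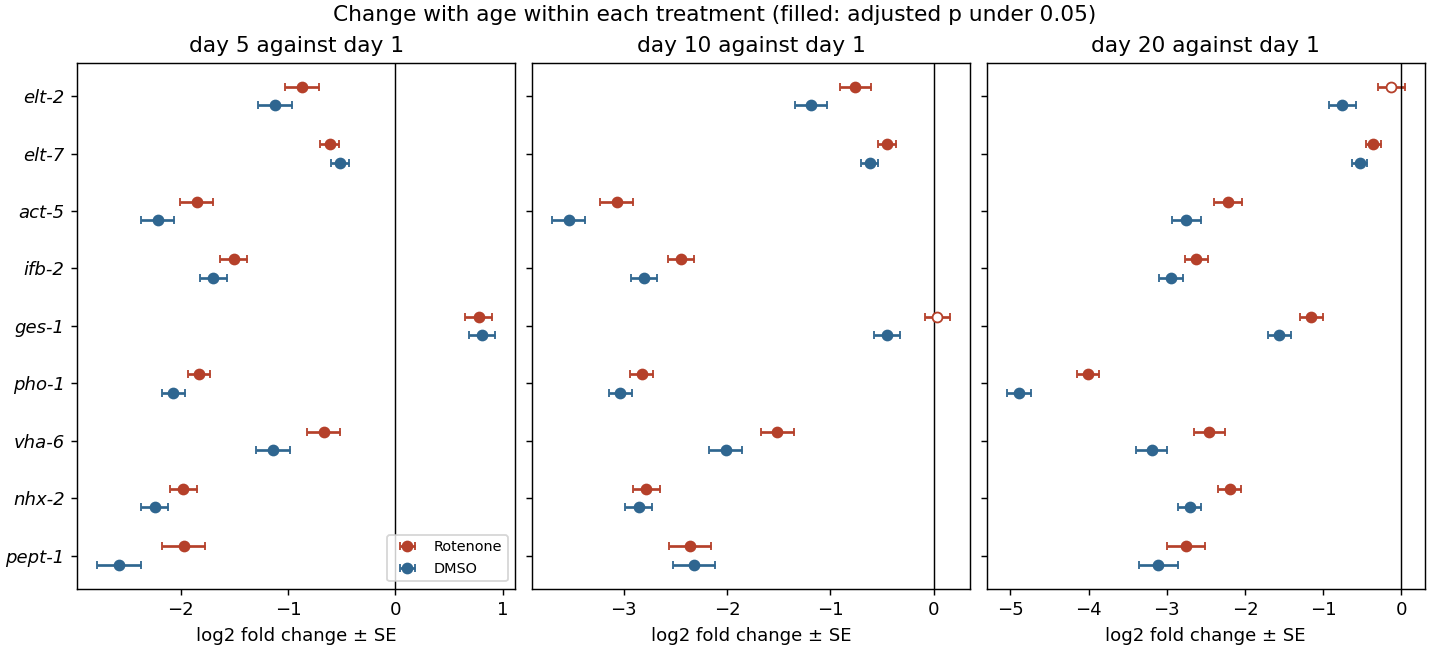
Log2 fold change (x axis, with SE) of each gene at days 5, 10 and 20 against day 1, rotenone above DMSO. Filled points passed the test. All are left of 0 except ges-1 at day 5 in both treatments and ges-1 at day 10 on rotenone (0.03), and elt-2 at day 20 on rotenone (-0.13) is open.

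**Figure D3:**
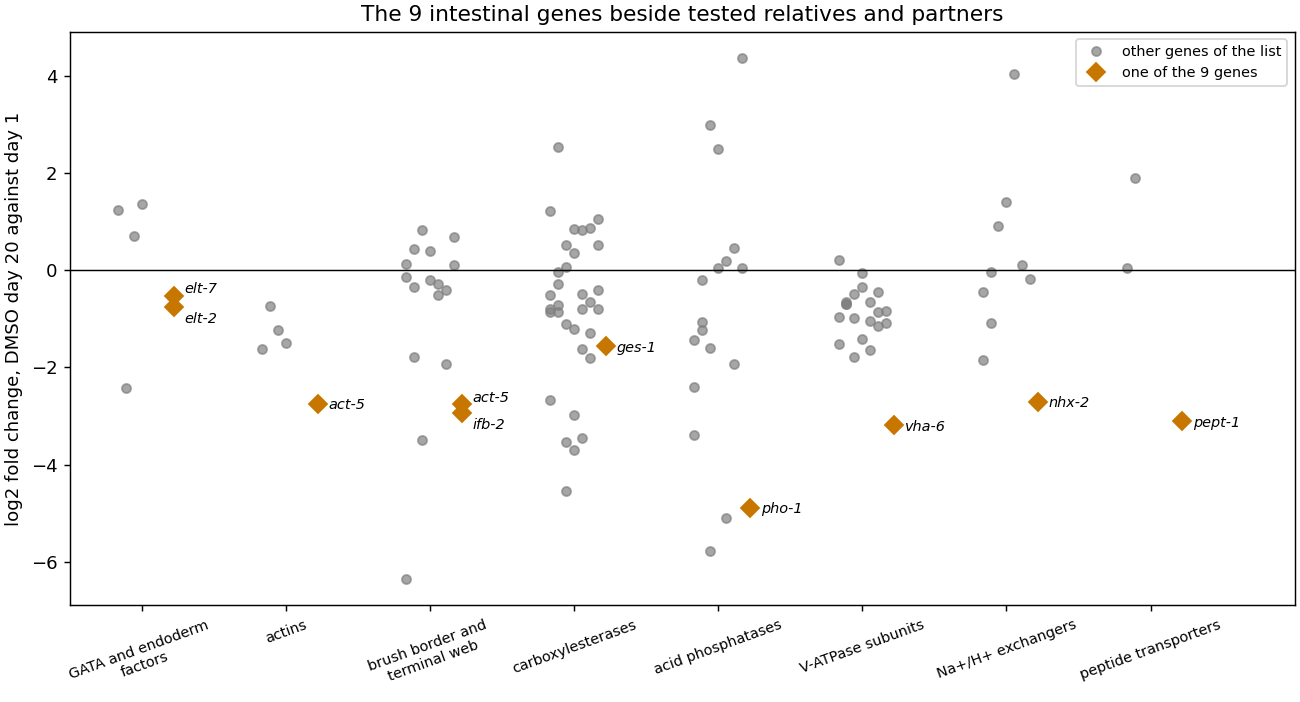
Log2 fold change at day 20 against day 1 on DMSO (y axis) for the 9 genes (diamonds) and the other tested genes of each list (grey points). All 4 other actins lie below 0, as do act-5 and the other diamonds, while acid phosphatases spread from -5.78 to 4.37.

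Rotenone against DMSO at each age asked whether the inhibitor moved these genes. With all 8 groups fitted together in edgeR, none of the 9 passed at any age, and some passed in other fits, as given below. Over all tested genes 0.648% passed at day 1, 0.88% at day 5, 1.36% at day 10 and 0.0654% at day 20. At an unadjusted p under 0.05 there were 2 of the 9 genes at day 1, 0 at day 5, 1 at day 10 and 2 at day 20. How many of all tested genes fell under that unadjusted threshold was not counted, so these counts have no background. DESeq2 called none at days 1, 5 and 10 and pho-1 at day 20.

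At day 1 all 9 fold changes were below 0, from -0.07 to -0.37 on the log2 scale, beside 45% of all genes. For act-5, ifb-2, ges-1, elt-2, vha-6, nhx-2 and pept-1 every rotenone library lay below every DMSO library, which was also so for 21.9% of all genes. The largest differences were -0.37 ± 0.16 for vha-6 (adjusted p = 0.226), -0.32 ± 0.15 for elt-2 (adjusted p = 0.256) and -0.27 ± 0.15 for act-5 (adjusted p = 0.298). elt-7 and pho-1, the pair whose libraries overlapped, were at -0.07 ± 0.08 and -0.10 ± 0.10. In a fit of only the day 1 groups those same 7 genes passed, beside 33.3% of all genes. Without DMSO day 10 replicate 1, which is not one of the groups compared but enters the shared spread, act-5 (adjusted p = 0.039) and vha-6 (adjusted p = 0.0127) passed, beside 18.4% of all genes. vha-6 also passed with the replicate block within each day (-0.37, adjusted p = 0.0248) and with no filter (-0.38, adjusted p = 0.046). Over all genes 2075 passed with that block and 1822 with no filter, against 109 with neither change. With the length trend removed the differences were -0.16 for vha-6, -0.05 for pept-1, -0.06 for nhx-2, -0.31 for elt-2 and -0.34 for act-5, so those of vha-6, pept-1 and nhx-2, which have the 3 longest exonic lengths of the 9 genes, were smaller.

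At day 5 the fold changes lay on both sides of 0. pept-1 was higher on rotenone without overlap (0.33 ± 0.20, adjusted p = 0.686), as were 6.71% of all genes. ges-1 and elt-7 were lower without overlap (-0.21 ± 0.12 and -0.17 ± 0.09, adjusted p = 0.682 and 0.62), as were 11.4% of all genes. At day 10 ges-1 was higher on rotenone without overlap (0.31 ± 0.12, adjusted p = 0.29), beside 4.12% of all genes. pept-1 was at -0.31 ± 0.19 at day 10 (adjusted p = 0.66), and without DMSO day 10 replicate 1 at -0.56 with an adjusted p of 0.0063, in a fit where 14.3% of all genes passed. That fit kept rotenone day 10 replicate 1, with pept-1 at 20.4 CPM beside 26.8 and 20.5 CPM in replicates 2 and 3.

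At day 20 all 9 fold changes were above 0, from 0.08 to 0.78, beside 54.7% of all genes. Without DMSO day 20 replicate 1, ges-1 was at -0.065 and pept-1 at -0.18. act-5, elt-2, pho-1, vha-6 and nhx-2 were higher on rotenone without overlap of the 2 libraries per group, as were 18.6% of all genes. The difference was largest for pho-1, with 2.79 and 2.34 CPM on rotenone against 1.53 and 1.48 CPM on DMSO (0.78 ± 0.16, adjusted p = 0.0962). It was 0.37 ± 0.19 for vha-6, 0.36 ± 0.15 for nhx-2, 0.31 ± 0.19 for elt-2 and 0.26 ± 0.18 for act-5, each with an adjusted p of 1. pho-1 passed in DESeq2 (0.76, adjusted p = 0.0359) and with the replicate block within each day (0.79, adjusted p = 0.0407). Over all genes 39 passed in DESeq2 and 20 with that block, against 11 with neither.

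**Figure D4:**
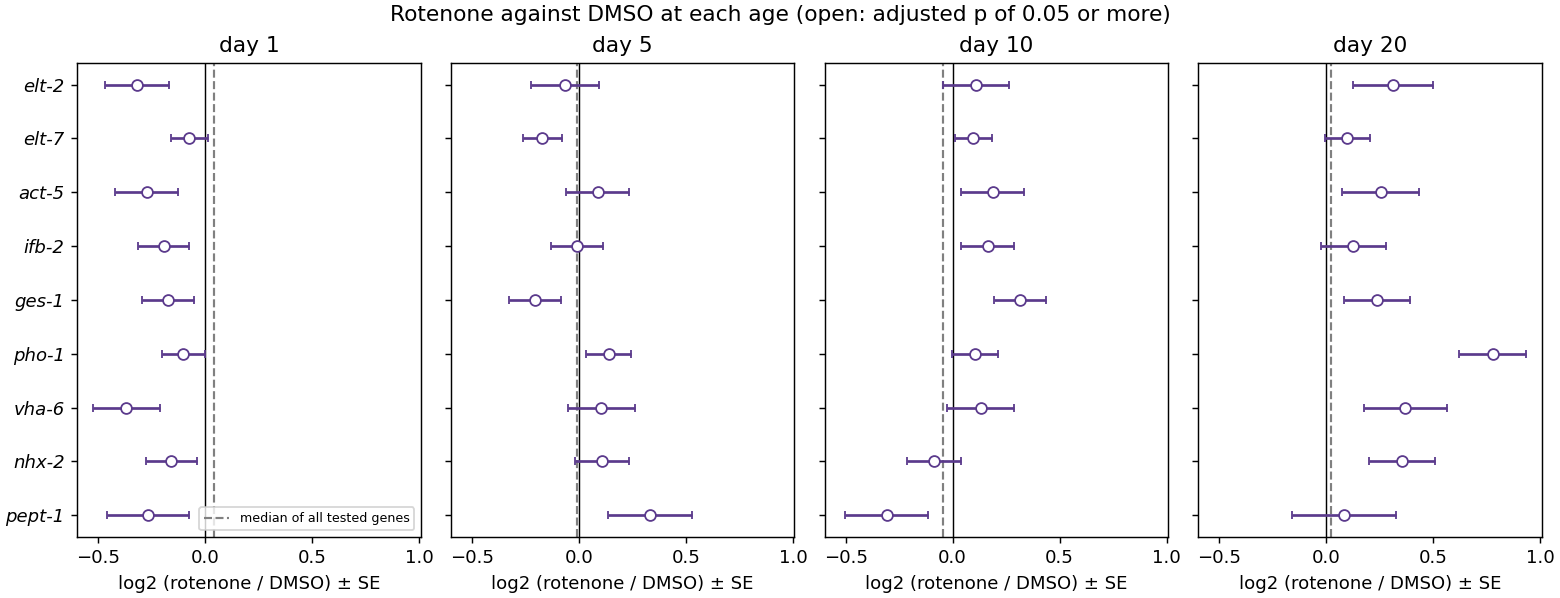
Log2 fold change of rotenone over DMSO (x axis, with SE) for each gene at 1, 5, 10 and 20 days after L4, with the median of all tested genes as a dashed line. Points lie left of 0 at day 1 and right of 0 at day 20, where ges-1 and pept-1 change sides without DMSO day 20 replicate 1, and all are open, since none passed.

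Whether the effect of rotenone differed between ages was tested as an interaction. None of the 9 genes passed for day 5, 10 or 20 against day 1, and 0.487%, 0.357% and 0.0416% of all tested genes did. At an unadjusted p under 0.05 there were 2, 4 and 6 of the 9 genes, and DESeq2 called none, none and pho-1. The share of all tested genes under that unadjusted threshold was not counted, so the counts of 2, 4 and 6 have no background. For day 20 minus day 1 all 9 differences were above 0, beside 49.1% of all genes. Their sign follows from the signs at day 1 and day 20 given above and adds nothing to them. They were 0.88 ± 0.19 for pho-1 (adjusted p = 0.147), 0.74 ± 0.25 for vha-6, 0.63 ± 0.24 for elt-2, 0.53 ± 0.23 for act-5 and 0.51 ± 0.20 for nhx-2 (adjusted p = 0.508 for each of these 4). The same 5 genes passed without DMSO day 10 replicate 1, beside 7.13% of all genes, and in a fit of only the 4 groups involved, beside 11.9%. pho-1 also passed with the replicate block within each day (0.89, adjusted p = 0.0496) and, as did vha-6, with no filter (adjusted p = 0.014 for pho-1 and 0.00884 for vha-6). Over all genes 34 passed with that block and 799 with no filter, against 7 with neither change. For day 5 minus day 1, pept-1 differed by 0.60 ± 0.27 (adjusted p = 0.457) and passed without DMSO day 10 replicate 1 (0.64, adjusted p = 0.0271), with no filter (adjusted p = 0.0456) and with only the groups involved (adjusted p = 0.000955). In that order 788 of 16782, 575 and 1681 of 15207 genes passed in these fits, against 82 with none of these changes. The interactions for days 5, 10 and 20 all use the same day 1 libraries, so they are not independent of one another.

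Levels between genes were compared per kilobase of exon, as mean CPM per kb in each group, beside 16547 tested genes with an exonic length. At day 1 act-5 had 328 CPM per kb on rotenone and 397 on DMSO, above 97.9% and 98.3% of genes. vha-6 followed with 73.4 on rotenone and 94.8 on DMSO, above 88.9% and 91.7% of genes. elt-2 and elt-7 had the lowest levels per length at day 1, between 7.38 and 9.22 CPM per kb, above 55.2% to 57.9% of genes. At day 20 act-5 was still above 88.3% of genes on rotenone and 86.1% on DMSO. pho-1 changed its place most, lying above 30.7% of genes on DMSO at day 20 and above 73.3% at day 1. The transcription factors stayed between 49.7% and 57.9% in all groups.

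The order of the 8 groups differed by gene. DMSO day 1 was highest and rotenone day 1 next for every gene but ges-1, and these 2 groups did not overlap except for elt-7 and pho-1. For ges-1 the order was DMSO day 5, rotenone day 5, DMSO day 1, rotenone day 10, rotenone day 1, DMSO day 10, rotenone day 20 and DMSO day 20, with overlap of the libraries of rotenone day 10 with those of either day 1 group and of the day 20 groups with each other. pho-1 and vha-6 kept the ages in order, and in both genes rotenone lay above DMSO at days 5, 10 and 20, with overlap at days 5 and 10 and none at day 20. act-5 had its day 20 groups between those of day 5 and day 10. elt-2 had rotenone day 20 next below rotenone day 1, with overlap, then DMSO day 20, and then all groups of days 5 and 10, which overlapped their neighbours. For ifb-2 the 4 groups of days 10 and 20 overlapped one another in order. For nhx-2 the lowest groups were DMSO day 20, DMSO day 10 and rotenone day 10, which overlapped one another in that order. For pept-1 rotenone day 5, DMSO day 10, DMSO day 5 and rotenone day 10 overlapped in that order. For elt-7 each group below DMSO day 5 overlapped the one next above it, while DMSO day 5 and rotenone day 5, the lowest, did not overlap each other.

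Likeness of pattern was measured as the root mean square difference of the 8 group means on the log2 scale after centring each gene. Among the 36 pairs the closest were act-5 and nhx-2 (0.234), elt-2 and elt-7 (0.243) and ifb-2 and nhx-2 (0.316). The farthest was elt-2 and pho-1 (1.49). Over all tested genes with at least 20 counts on average, the 5 most like act-5 were ZK742.3 (0.147), the troponin I gene tni-1 (0.189), the basement membrane gene unc-52 (0.197), C09B8.4 (0.220) and F58E6.13 (0.229). The gene most like each of the others was nhr-97 for elt-2 (0.0898), faah-1 for elt-7 (0.0384), W10C8.5 for ifb-2 (0.106), aat-1 for ges-1 (0.110), ZK1321.4 for pho-1 (0.171), alh-13 for vha-6 (0.122), acdh-9 for nhx-2 (0.164) and sams-1 for pept-1 (0.120). The groups share their libraries and scaling, so these values describe the 8 groups only.

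Markers of other tissues moved with age beside the intestinal genes. The background for all counts at day 20 against day 1 was 30.9% lower and 27.8% higher on DMSO. On rotenone it was 33.4% lower and 31.4% higher. At day 20 against day 1 on DMSO all 9 tested body wall muscle genes fell, with a median log2 fold change of -3.42, and 8 of 9 hypodermis genes fell (median -3.20). Summed muscle marker levels ran from 538 to 695 CPM at day 20 and from 5324 to 6190 CPM at day 1, and unc-27 and mlc-2 were at -4.11 ± 0.13 and -3.29 ± 0.11. Summed hypodermis markers ran from 129 to 144 CPM at day 20 and from 1900 to 1977 CPM at day 1, with col-19 at -6.67 ± 0.19 and col-12 at -7.41 ± 0.48. Of 9 pharynx markers 7 fell (median -0.86), with the transcription factor pha-4 at -1.03 ± 0.11 and the myosin myo-1 at -1.82 ± 0.24, and their sum ran from 245 to 264 CPM at day 20 and from 451 to 578 CPM at day 1. Of 9 neuronal markers 7 rose and none fell (median 0.78), and their sum ran from 399 to 433 CPM at day 20 and from 217 to 242 CPM at day 1, with the synaptic genes unc-64 at 1.03 ± 0.10 and unc-13 at 0.96 ± 0.14. On rotenone all 9 muscle, 7 hypodermis and 8 pharynx markers fell, and 6 neuronal markers rose and 1 fell. On DMSO the 10 germline markers had 4 lower and 1 higher (median -0.34), the 9 oocyte markers 7 lower (median -0.56), the 8 sperm markers 5 lower (median -0.51), the 5 somatic gonad markers 1 lower (median -0.23) and the 6 excretory cell markers 3 lower and 1 higher (median -0.46). Those with the smallest p on DMSO were pgl-3 (-0.76 ± 0.15) and mex-5 (-0.48 ± 0.10) for germline, egg-1 (-0.64 ± 0.11) and oma-2 (-0.58 ± 0.11) for oocytes and gsp-3 (-4.05 ± 0.45) and gsp-4 (-2.54 ± 0.38) for sperm. For the somatic gonad it was sth-1 (-1.89 ± 0.27), and for the excretory cell aqp-8 (-1.08 ± 0.11) and vha-5 (-1.78 ± 0.26). On rotenone 3 germline markers were higher and 2 lower (median 0.20), 3 oocyte markers were lower (median -0.28), 5 sperm markers were lower (median -0.50), 1 somatic gonad marker was higher and 1 lower (median -0.22), and 2 excretory cell markers were higher and 3 lower (median -0.35). The part of these tissues in the fall of the 9 genes was not tested. Between rotenone and DMSO no marker of these lists passed at days 1, 5 and 10, and 1 hypodermis marker was higher at day 20. Over all tested genes 0.648%, 0.88%, 1.36% and 0.0654% passed at days 1, 5, 10 and 20.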

How the data were processed

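Messenger RNA of whole animals was sequenced from libraries of the TruSeq RNA kit, made from total RNA, per the labels' protocols. This kit does not mark the strand. The authors deposited read counts per gene, whole numbers without normalization. Per the submitters' processing notes the build was WBcel235, and TopHat 1.4.1 and HTSeq were among the tools. The annotation version, the filters on reads and the treatment of reads that fit several genes are not given in the sources used here. A deposited table of RPKM was not used.

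After filterByExpr and TMM scaling, edgeR 4.0.16 (R 4.3.3) fitted all 8 groups together and gave quasi-likelihood tests of the counts. P-values were adjusted by Benjamini-Hochberg over all 16822 tested genes in each of 17 comparisons, with a threshold of 0.05. The F statistic gave the SE. CPM are counts over the tested total times the TMM factor, and exonic lengths are those of the Ensembl annotation of WBcel235. The scripts were tested on simulated data. The common biological coefficient of variation was 0.135.

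Members and lists were chosen with earlier results of these data known. All 9 genes are named. From each list the pair with the smallest p in its more frequent direction at day 20 against day 1 on DMSO is named, or the only one that passed, and other genes are marked as chosen after their values were seen. The exchanger list was tied, and its pair was taken from the genes that fell. Like patterns were searched among genes with a mean of at least 20 counts.

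Alternatives were DESeq2 1.42.0, RLE size factors, a minimum mean of 50 counts, no filter, only the groups compared, the replicate number as a block over all days or within each day, removal of a length trend (lowess span 0.3) with and without that block, and each library left out. Deviations from the group mean correlated at 0.43, 0.22 and 0.16 between rotenone and DMSO libraries of equal number at day 10. Unequal numbers reached 0.24 (rotenone 3 with DMSO 2) and 0.17 (rotenone 2 with DMSO 3). By the data only the replicate 1 libraries thus stood together, and replicates 2 and 3 could not be paired by number. The labels name no pairs, so the block is an alternative without a source. For equal numbers the correlations were 0.04, 0.11 and 0.05 at day 1, 0.06, 0.03 and 0.16 at day 5 and 0.10 at day 20.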

Additional observations from a re-analysis of the deposited data

How the results depend on the processing

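Of 76 passing age comparisons of single genes, 71 passed in every alternative; the exceptions were the changes between days 10 and 20 of act-5, elt-2 and pept-1 on DMSO and of elt-2 on rotenone, and that of elt-7 between days 1 and 20 on rotenone. Except where a cause is given, it was not tested. Of the 9 genes, counts that passed moved as follows. For rotenone at day 1, 0 passed, but 1 without a filter, 1 with the replicate block within each day, 7 with only the compared groups fitted and 0 to 2 with a library left out. At day 10 it was 0 to 1 with a library left out. At day 20 it was 1 with the block within each day, 1 with that block and the length trend removed, and 1 in DESeq2. On DMSO 6 passed between days 10 and 20, but 3 in a fit of only those groups, which holds fewer samples. For the interaction, at day 5 it was 1 without a filter, 3 with only the groups compared and 0 to 1 with a library left out. At day 10 it was 2 with the block and length trend removed. At day 20 it was 2 without a filter, 1 with the block, 2 with the block and length trend removed, 5 with only the groups compared, 1 in DESeq2 and 0 to 5 with a library left out. The pairing by replicate number within each day changed no other call of a count, and at day 10 left 0 of the 9 genes passing.

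Of the uncalled fold changes printed or counted by sign above, 4 turned sign. With a library left out, pept-1 for rotenone at day 20 ran from -0.18 (without DMSO day 20 replicate 1) to 0.37, ges-1 there from -0.065 (without the same library) to 0.56, ifb-2 between days 10 and 20 on DMSO from -0.26 to 0.031 (without the same library), and ges-1 at day 10 against day 1 on rotenone from -0.042 (without rotenone day 10 replicate 3) to 0.091. The last was -0.011 with a mean of at least 50 counts. Among other uncalled comparisons of single genes, 36 alternative values of 12 gene and comparison pairs had the opposite sign.

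Counts over all genes that passed moved by over 1.5 times in these cases. Rotenone at day 1 gave 109, but 1822 without a filter, 5010 with only the groups compared, 2075 with the block within each day, 928 with block and length trend, 327 in DESeq2 and 22 to 3082 with a library left out. At day 5 it gave 148, but 339 without a filter, 298 with block and length trend, 227 in DESeq2 and 46 to 308. At day 10 it gave 229, but 362 without a filter, 345 with the length trend removed, 673 with block and length trend, 0 with only the groups compared, 405 in DESeq2 and 47 to 2396. At day 20 it gave 11, but 64 without a filter, 20 with the block, 30 with block and length trend, 3 with only the groups compared, 39 in DESeq2 and 0 to 63. The interaction at day 5 gave 82, but 575 without a filter, 1681 with only the groups compared, 140 with block and length trend, 166 in DESeq2 and 32 to 788. At day 10 it gave 60, but 750 without a filter, 113 with the block, 112 with the length trend removed, 567 with both, 3 with only the groups compared, 224 in DESeq2 and 12 to 110. At day 20 it gave 7, but 799 without a filter, 34 with the block, 13 with the length trend removed, 339 with both, 1949 with only the groups compared, 38 in DESeq2 and 0 to 1196. Except for rotenone at day 20 (DMSO day 20 replicate 2), the highest of these counts came without DMSO day 10 replicate 1. On DMSO 4326 genes passed between days 5 and 10, but 1909 with only those groups and 6664 with block and length trend, and 7674 between days 10 and 20, but 2632 with only those groups. On rotenone 3831 passed between days 5 and 10, but 6120 with block and length trend. Mean levels were 0.991 to 1.01 times as high with RLE factors and 0.907 to 1.15 times with no factor. Groups of 2 or 3 libraries limit what could be called.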

Other observations

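Other genes known for expression in the intestine were described as well, 35 of them tested. At day 20 against day 1, 30.9% of all tested genes fell and 27.8% rose on DMSO, and 33.4% fell and 31.4% rose on rotenone. Of the 35, 22 fell and 7 rose on DMSO, with a median log2 fold change of -1.01. On rotenone 20 of them fell and 9 rose, with a median of -0.78. The smallest p among those that fell belonged to 2 protease genes. The cathepsin B gene cpr-5 had a log2 fold change of -3.61 ± 0.11 (SE) on DMSO and the aspartyl protease gene asp-3 one of -3.94 ± 0.13. asp-3 had 93.3 ± 7.4 CPM at day 20 (SD, n = 2) and 1432 ± 43 CPM at day 1 (SD, n = 3). The yolk genes vit-1, vit-3 and vit-4 fell, at -6.56 ± 0.34, -7.05 ± 0.37 and -6.23 ± 0.28. Genes named from here on, and the yolk genes, were chosen after their values were seen. The ferritin gene ftn-1 rose by 4.45 ± 0.19, to 34.6 ± 4.0 CPM at day 20 (SD, n = 2) against 1.57 ± 0.40 CPM at day 1 (SD, n = 3). The metallothionein gene mtl-1 rose by 5.77 ± 0.27, to 77.2 ± 9.2 CPM against 1.38 ± 0.50 CPM. The transporter gene pgp-1 rose by 2.03 ± 0.23. Genes of intestinal expression thus moved in both directions with age, and the summed level of the 35 ran from 6410 to 11009 CPM at day 20 and from 48060 to 61595 CPM at day 1 on DMSO, a sum that includes the yolk genes. Between rotenone and DMSO 2 of the 35 were higher at day 10 and 2 at day 20, 1 was higher and 1 lower at day 5, and none passed at day 1. Of all 16822 tested genes, 76 were higher and 153 lower at day 10, and 10 higher and 1 lower at day 20. At day 5 there were 18 higher and 130 lower. The numbers at day 1 were 63 higher and 46 lower.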
